A study of Mus musculus with 40 samples.

Results

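Genes that mark injured kidney tubules were followed across the renal cortex of mice with and without diabetes. The 10 genes Havcr1, Lcn2, Krt20, Vcam1, Spp1, Clu, Sox9, Cd44, Tnfrsf12a and Krt19 were found by symbol, each on 1 row, among the 55401 genes of a count table with 40 libraries. The mice were male C57BL/6J, either Ins2-Akita heterozygous, a line that carries a mutated insulin gene and develops diabetes, or wild type (WT) littermates, and each library came from the cortex of 1 animal. Each genotype was given an ethanol vehicle (10% ethanol in water), MitoGamide at 10 mg/kg in that vehicle, a water vehicle, or MitoQ, which gives 8 groups of 5. MitoGamide is a mitochondria-targeted scavenger of methylglyoxal and MitoQ a mitochondria-targeted antioxidant. The protocol describes daily oral gavage from 6 to 22 weeks of age for the ethanol vehicle and MitoGamide. The dose and vehicle of MitoQ are not given in the sources used here, and its groups were placed with those on water as the water arm. The Akita mutation is in the germline, and it acts on the insulin-producing cells of the pancreas rather than on the kidney itself.

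The proximal tubule reabsorbs most of what the glomerulus filters, and its cells change state when they are damaged. Injured tubule cells lose transporters and put out a set of proteins that are used as markers in urine and tissue. Among them are the surface receptor KIM-1 (Havcr1) and the secreted proteins NGAL (Lcn2), osteopontin (Spp1) and clusterin (Clu). Bulk cortex does not tell which segment the RNA of a marker came from. Keratins 19 and 20, the transcription factor Sox9 and the surface proteins Vcam1, Cd44 and Tnfrsf12a are further marks of damaged, dedifferentiated or incompletely repaired tubule cells. Several of these genes are also used by other cells of a healthy kidney, such as Spp1 and Clu in distal segments, Krt19 in collecting duct and urothelium and Vcam1 in parietal cells. In bulk cortex, fewer cells of a type and less RNA per cell cannot be told apart.

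Of the 10 markers, 4 rose in Akita cortex and none fell. Over the 4 treatments, Spp1 rose 2.38-fold in the group means, Lcn2 3.12-fold, Krt19 3.87-fold and Clu 1.41-fold. Vcam1, Sox9, Cd44 and Tnfrsf12a did not pass the test, and Havcr1 and Krt20 had too few counts to be tested over the 40 libraries. No marker passed edgeR's test for MitoGamide against the ethanol vehicle or for MitoQ against water, in either genotype. DESeq2 called Lcn2 for MitoGamide in Akita mice (log2 fold change 1.73, adjusted p = 0.0355), among 1069 genes called. The 8 tested markers had a median log2 fold change of 0.30 between genotypes, beside -0.02 for all genes tested. Of all 17769 genes tested, 22.8% were called (adjusted p under 0.05, edgeR's quasi-likelihood test on all 40 libraries), 10.9% as higher and 11.9% as lower. Lcn2 and Krt19 reached the minimum of 10 counts on average through the Akita libraries (means of 21.2 and 33.1 counts, against 6.75 and 8.40 in WT), so that the 4 of 8 is a description of the genes that could be tested.

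Library totals ran from 9106654 to 24321424 estimated counts (median 15638394.5). Levels are given as CPM, the reads of a gene per 1000000 reads of a library whose total was scaled by its TMM factor (from 0.505 to 1.201). On the main axis of variation (40.01% of the variance of log2 CPM), 11 libraries stood apart from the rest, all of them in the water arm, 6 from Akita and 5 from WT mice. In addition, 4 libraries held RNA of urothelium, the lining of the renal pelvis, with 10 urothelial genes summing to over 5 CPM. These were Akita water replicates 3 and 4 (9.38 and 19.1 CPM), Akita MitoQ replicate 2 (17.2 CPM) and WT water replicate 1 (7.03 CPM). Next below this limit were Akita water replicate 2 (4.45 CPM) and WT ethanol replicate 3 (3.68 CPM), beside a median of 1.40 CPM in WT and 2.11 CPM in Akita libraries. For the 4 called markers, the differences over the 4 treatments are also given without the 11 libraries and without the 4. Genes of mature proximal tubule summed to between 23523 and 49082 CPM in WT and between 19676 and 37650 CPM in Akita libraries.

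The markers differed widely in abundance. Per kilobase of exon, Spp1 stood at 301 CPM and Clu at 46.7 CPM on average over the 40 libraries, higher than 99.6% and 96.7% of 17751 genes. Tnfrsf12a followed at 2.79 CPM per kilobase, close to the middle of all genes (54.2%). Vcam1 (0.883), Krt19 (0.670), Cd44 (0.403), Lcn2 (0.328), Havcr1 (0.249), Sox9 (0.196) and Krt20 (0.0639 CPM per kilobase) were each higher than at most 27.4% of the ranked genes, Krt20 than 0.113%. The low markers rest on few counts per library, which widens their errors.

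The 250 bases before the transcription start were read for 6 of the markers from RefSeq (GRCm38.p6), which gave 9 windows. RefSeq's start sites differ from the ends of the gene positions given with each marker, which are GENCODE's, and the windows of Lcn2 and Havcr1 and a second window of Spp1 lie inside those positions. No entry was at hand for Vcam1, Clu, Sox9 and Krt19. The windows of Spp1 and Lcn2 are shown because these are the markers with an entry that rose in Akita cortex, and the window of Krt20 because it holds a TATA box close to the start. Capitals mark matches, on either strand, to the letters TATAAA of a TATA box, the letters GGGCGG of a GC box, and the letters TGACTCA, which AP-1 factors use, TTCCNGGAA, which STAT factors use, and GGGANNNTCC, which NF-kB factors use.
Spp1, chr5:104434861-104435110, plus strand: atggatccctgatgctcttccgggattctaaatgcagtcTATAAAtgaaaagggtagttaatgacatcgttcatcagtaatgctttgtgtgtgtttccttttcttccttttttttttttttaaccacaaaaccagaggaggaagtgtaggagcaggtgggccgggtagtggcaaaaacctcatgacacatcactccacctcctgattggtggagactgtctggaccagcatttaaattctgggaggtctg
Lcn2, chr2:32387740-32387989, minus strand: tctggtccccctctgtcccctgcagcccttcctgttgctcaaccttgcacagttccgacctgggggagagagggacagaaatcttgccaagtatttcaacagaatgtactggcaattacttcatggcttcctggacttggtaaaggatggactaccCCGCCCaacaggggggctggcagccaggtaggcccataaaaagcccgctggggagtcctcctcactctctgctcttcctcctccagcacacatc
Krt20, chr11:99438154-99438403, minus strand: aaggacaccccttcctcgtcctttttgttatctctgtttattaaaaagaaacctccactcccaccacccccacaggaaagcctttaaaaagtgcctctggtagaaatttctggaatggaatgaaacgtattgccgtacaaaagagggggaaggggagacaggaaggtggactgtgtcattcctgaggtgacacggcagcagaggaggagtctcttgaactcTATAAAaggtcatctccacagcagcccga
The Spp1 window held TATAAA 211 to 206 bases before the start and none of the other motifs. The Lcn2 window held 1 GC box, at 94 to 89 bases before the start, on the minus strand of the gene. The Krt20 window held TATAAA at 29 to 24 bases before the start. Tnfrsf12a, which was not called between genotypes, had 5 GC boxes, and the windows of Cd44 and Havcr1 and a second window of Spp1 held none of the 5 motifs. Among 32536 distinct windows of this length, 12.3% held the TATA box, 33% the GC box, 4.45% the AP-1 letters, 0.919% the STAT letters and 3.87% the NF-kB letters. A match is a description of letters, not a site of binding.

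Spp1 (ENSMUSG00000029304.14, chr5:104435118-104441050 in GRCm38, plus strand) encodes osteopontin, a secreted phosphoprotein that binds integrins. A gene on the same strand, Gm42793, overlaps Spp1, so that their reads may be mixed. On the ethanol vehicle, the 5 WT libraries held 257, 426, 343, 304 and 297 CPM, and the 5 Akita libraries 704, 795, 933, 525 and 590.4 CPM. With MitoGamide, the WT libraries held 282, 301, 329, 337 and 401 CPM and the Akita libraries 682, 889, 791, 569 and 1511 CPM. Every Akita library of the ethanol arm was thus above every WT library of that arm. On water, WT libraries held 284, 312, 166, 187 and 360.0 CPM and Akita libraries 1013, 563, 374, 934 and 446 CPM. With MitoQ, WT libraries held 197, 286, 284, 310.3 and 229.6 CPM and Akita libraries 571, 455, 367, 805 and 479 CPM. The groups did not overlap within any of the 4 treatments, and 18 of 20 Akita libraries were above the highest WT library of all. The log2 fold change over the 4 treatments was 1.23 (SE 0.13, n = 20 per genotype, edgeR adjusted p = 2.85e-09), from means of 699.8 ± 273 CPM (Akita) and 295 ± 66.0 CPM (WT, SD). It was 1.28 without the 11 libraries that stood apart and 1.27 without the 4 with urothelial RNA, and was called in both.

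By treatment, the log2 fold change of Spp1 was 1.14 on the ethanol vehicle (SE 0.16, edgeR adjusted p = 0.00046) and 1.45 with MitoGamide (SE 0.22, edgeR adjusted p = 0.00195). On water it was 1.35 (SE 0.33, edgeR adjusted p = 0.137) and with MitoQ 1.04 (SE 0.21, edgeR adjusted p = 0.0512), so that neither passed the test although no library overlapped. The share of genes called was 16.4% on the ethanol vehicle, 14.3% with MitoGamide, 0.552% on water and 0.557% with MitoQ. The share with groups that did not overlap and Akita higher was 5.52%, 5.4%, 0.934% and 1.39% in the same order. On water, Spp1 was called with DESeq2 (adjusted p = 0.00614), among 354 genes called. It was also called with edgeR on the 2 WT and 2 Akita libraries of this pair that did not stand apart (log2 fold change 1.58, adjusted p = 0.0105). With MitoQ it was called with DESeq2 (adjusted p = 0.000276), among 415 genes called. The edgeR fit on the 3 WT and 2 Akita libraries that did not stand apart called it too (log2 fold change 0.93, adjusted p = 0.0224). With all 40 libraries in one edgeR fit it was called on water (adjusted p = 0.00135) and with MitoQ (adjusted p = 0.0242), and without a minimum of counts it was called with MitoQ (adjusted p = 0.0498). Leaving out Akita MitoQ replicate 3 or WT MitoQ replicate 3 also gave a call with MitoQ (edgeR, lowest adjusted p = 0.0396, without the latter). There was no call in the following edgeR fits, where on water the adjusted p was 0.222 with the replicate number as a block, 0.218 without a minimum of counts and 0.5295 without the libraries with urothelial RNA, and with MitoQ it was 0.112 with the block and 0.0731 without the urothelial library.

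**Figure D1:**
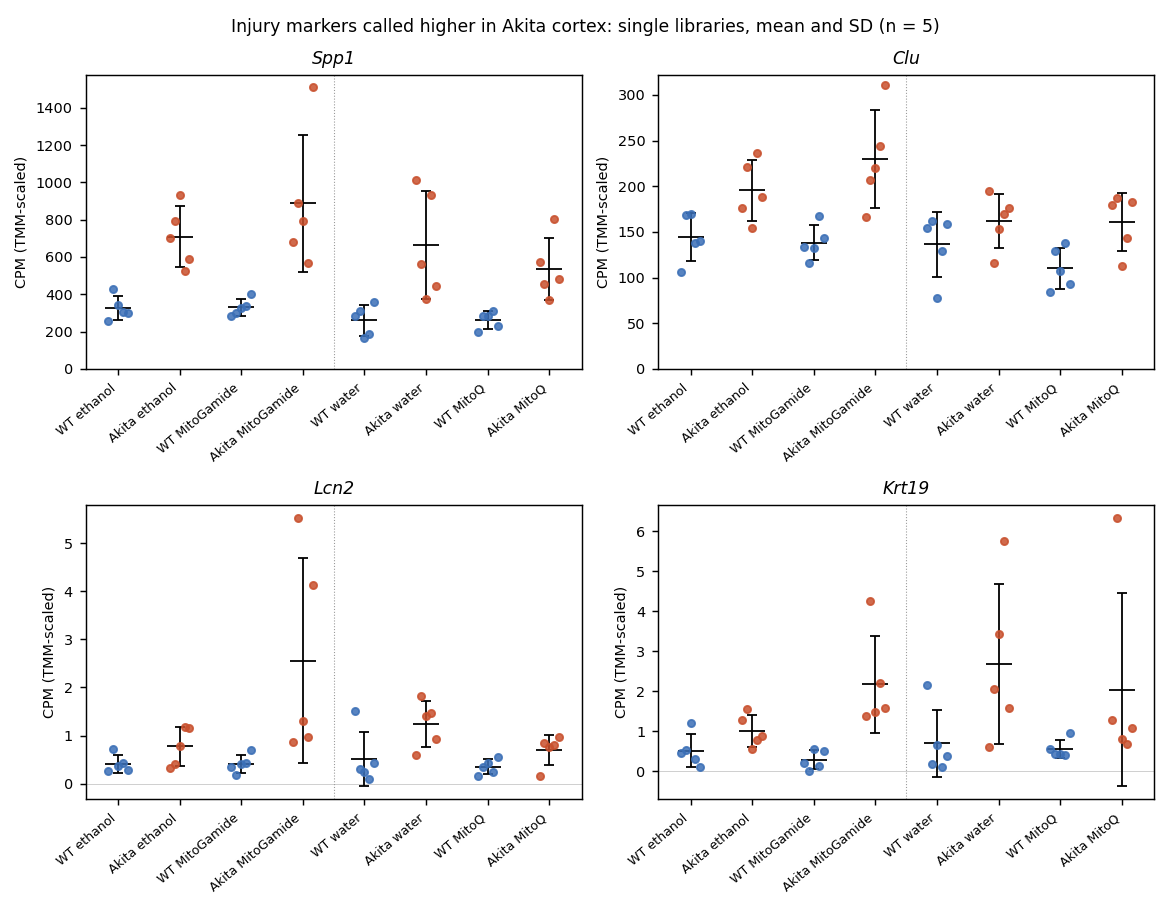
Levels of Spp1, Clu, Lcn2 and Krt19 in CPM (vertical axes, TMM-scaled) in the 8 groups. Points are single libraries, blue for WT and red for Akita, and bars are the mean and SD of 5; the Akita libraries of Spp1 lie above the WT libraries within every treatment, while Lcn2 and Krt19 have single high libraries.

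Clu (ENSMUSG00000022037.15, chr14:65968483-65981547, plus strand) encodes clusterin, a secreted chaperone. On the ethanol vehicle, WT libraries held 106, 168, 169.6, 137 and 140.4 CPM and Akita libraries 176, 221, 154, 236 and 188 CPM. With MitoGamide, WT libraries held 133, 116, 132, 168 and 143 CPM and Akita libraries 166, 207, 221, 244 and 311 CPM. In each of these pairs, 4 of 5 Akita libraries were above the highest WT library. On water, WT libraries held 154, 162, 77.2, 129.6 and 159 CPM and Akita libraries 194, 116, 153, 169.8 and 176 CPM. With MitoQ, WT libraries held 84.1, 129, 107, 138 and 93.1 CPM and Akita libraries 180.0, 187, 113, 144 and 182 CPM. The groups overlapped most on water, where 3 of 5 Akita libraries were above the WT range. Over the 4 treatments the log2 fold change was 0.49 (SE 0.09, edgeR adjusted p = 0.000101), from means of 187 ± 45.5 CPM (Akita) and 132 ± 27.9 CPM (WT, SD, n = 20). It was 0.51 without the 11 libraries and 0.50 without the 4, and was called in both.

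The log2 fold change of Clu was 0.76 with MitoGamide (SE 0.15, edgeR adjusted p = 0.00757) and 0.45 on the ethanol vehicle (SE 0.13, edgeR adjusted p = 0.036). The ethanol call was lost when Akita ethanol replicate 2, 4 or 5 or WT ethanol replicate 1, 4 or 5 was left out (edgeR adjusted p from 0.056 to 0.0887 in these 6 fits), and when all 40 libraries were fitted together (adjusted p = 0.209). On water the log2 fold change was 0.25 (95% confidence interval -0.23 to 0.72) and with MitoQ 0.56 (0.17 to 0.95, edgeR adjusted p = 0.273), neither of which passed the test.

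Lcn2 (ENSMUSG00000026822.14, chr2:32384633-32388252, minus strand) encodes lipocalin 2, or NGAL, a secreted protein that binds iron-carrying siderophores. On the ethanol vehicle, WT libraries held 0.256, 0.726, 0.360, 0.427 and 0.290 CPM and Akita libraries 0.329, 0.412, 0.777, 1.18 and 1.17 CPM. With MitoGamide, WT libraries held 0.340, 0.185, 0.411, 0.422 and 0.704 CPM and Akita libraries 0.866, 5.52, 1.31, 0.961 and 4.14 CPM. The MitoGamide groups did not overlap, and 2 Akita libraries, replicates 2 and 5, were far above the other 3. On water, WT libraries held 1.51, 0.314, 0.238, 0.106 and 0.431 CPM and Akita libraries 0.601, 1.83, 1.41, 1.46 and 0.924 CPM. With MitoQ, WT libraries held 0.156, 0.354, 0.433, 0.243 and 0.555 CPM and Akita libraries 0.168, 0.843, 0.764, 0.805 and 0.962 CPM. In the water arm 1 WT library on water reached the Akita range and 1 Akita library on MitoQ lay in the WT range. These levels stand for 1 to 101 counts per library.

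Over the 4 treatments the log2 fold change of Lcn2 was 1.41 (SE 0.28, edgeR adjusted p = 0.000181), from means of 1.32 ± 1.28 CPM (Akita) and 0.423 ± 0.302 CPM (WT, SD, n = 20). It remained called in each of 40 fits that left out 1 library, with log2 fold changes from 1.30 to 1.63. By treatment, the call was made with MitoGamide (log2 fold change 2.57, SE 0.58, edgeR adjusted p = 0.0146), and held in all 10 fits without 1 library (2.04 to 2.89). In this pair too the minimum of counts was reached through the Akita libraries (mean of 40.2 counts, against 6.8 in WT), and without a minimum the adjusted p was 0.00568 with edgeR. It was not made on the ethanol vehicle (0.90, SE 0.41, edgeR adjusted p = 0.159) or on water (1.22, SE 0.58, edgeR adjusted p = 0.686). The MitoQ pair held a mean of 8.3 counts and was not tested. Without the 11 libraries that stood apart the difference over the 4 treatments was 1.02 (edgeR adjusted p = 0.0368), and without the 4 with urothelial RNA it was 1.57 (edgeR adjusted p = 0.000112).

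Krt19 (ENSMUSG00000020911.14, chr11:100140810-100148665, minus strand) encodes a keratin of simple epithelia. On the ethanol vehicle, WT libraries held 0.448, 0.519, 1.20, 0.305 and 0.0966 CPM and Akita libraries 1.27, 1.55, 0.565, 0.775 and 0.874 CPM. With MitoGamide, WT libraries held 0.204, 0, 0.548, 0.141 and 0.516 CPM and Akita libraries 1.37, 4.26, 1.47, 2.20 and 1.57 CPM. As for Lcn2, the MitoGamide groups did not overlap. The WT library at 0 counts allows up to 0.277 CPM. On water, WT libraries held 2.15, 0.188, 0.653, 0.106 and 0.370 CPM and Akita libraries 0.601, 2.05, 3.43, 5.76 and 1.58 CPM. With MitoQ, WT libraries held 0.548, 0.425, 0.433, 0.405 and 0.958 CPM and Akita libraries 1.29, 6.33, 0.814, 0.690 and 1.08 CPM. The highest libraries of the water arm, with 2.15, 3.43, 5.76 and 6.33 CPM, were the 4 with urothelial RNA.

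Over the 4 treatments the log2 fold change of Krt19 was 1.87 (SE 0.34, edgeR adjusted p = 5.56e-05), from means of 1.98 ± 1.67 CPM (Akita) and 0.511 ± 0.482 CPM (WT, SD, n = 20). Without the 4 libraries with urothelial RNA it was 1.61 (edgeR adjusted p = 4.04e-05), and without the 11 libraries that stood apart 1.52 (adjusted p = 0.0028). With MitoGamide, where no library of either genotype passed 2.84 CPM of urothelial genes, it was 2.84 (SE 0.53, edgeR adjusted p = 0.00568). There the means were 35 counts in Akita and 4.8 in WT libraries, and without a minimum of counts the adjusted p was 0.00169 with edgeR. The differences on the ethanol vehicle (0.93, edgeR adjusted p = 0.194), on water (1.95, edgeR adjusted p = 0.471) and with MitoQ (1.76, edgeR adjusted p = 0.381) did not pass the test. Leaving out 1 library moved the value on water between 1.43 (without Akita water replicate 4) and 2.97 (without WT water replicate 1), and the lowest value with MitoQ was 0.72, without Akita MitoQ replicate 2. Without the 11 libraries that stood apart the values were 1.37 on water and 0.91 with MitoQ, neither of which passed the test. With MitoGamide, genes of collecting duct and medulla summed to between 173 and 213 CPM in WT libraries. In the Akita libraries they summed to between 225 and 361 CPM, so that the list did not overlap, and its part in the values of Krt19 was not tested.

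**Figure D2:**
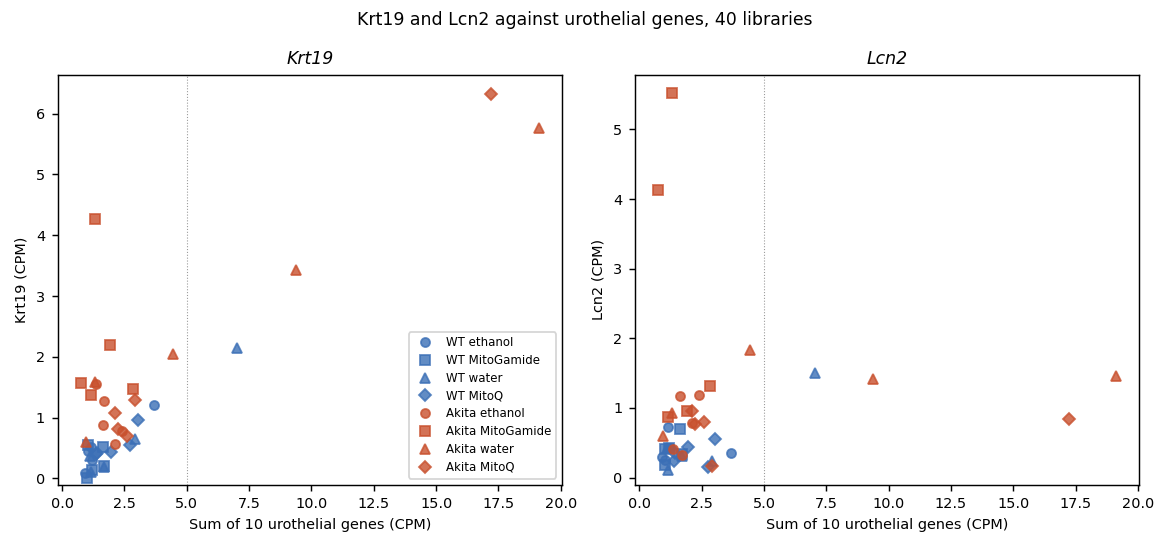
Krt19 and Lcn2 (CPM, vertical axes) against the summed level of 10 urothelial genes (CPM, horizontal axis) in 40 libraries. Colours give the genotype and shapes the treatment; the dotted line is at 5 CPM, and the 4 libraries to its right include the Krt19 values of 5.76 and 6.33 CPM, while the highest Lcn2 values, 5.52 and 4.14 CPM, lie to its left.

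Havcr1 (ENSMUSG00000040405.13, chr11:46735080-46779578, plus strand) encodes KIM-1, a receptor by which injured proximal tubule cells take up dead cells, and Krt20 (ENSMUSG00000035775.2, chr11:99428403-99438150, minus strand) a keratin that healthy tubules lack. Havcr1 was close to the limit of detection in both genotypes, with 1 to 27 counts in WT and 1 to 24 counts in Akita libraries. The means were 0.630 ± 0.325 CPM in WT and 0.504 ± 0.377 CPM in Akita mice (SD, n = 20), and no Akita library was above the WT range. Havcr1 could be tested on the ethanol vehicle, where the log2 fold change was -0.31 (95% confidence interval -1.16 to 0.54). Fitted over all 40 libraries without a minimum of counts, it was -0.36 (edgeR adjusted p = 0.648). When the 11 libraries that stood apart were set aside, Havcr1 reached the minimum through the WT libraries (12.3 counts on average in 15 WT and 8.79 in 14 Akita libraries). The log2 fold change in these 29 libraries, a set chosen after seeing the data, was -0.96 (edgeR adjusted p = 0.0132), which is a description of a gene that passed the minimum through the group where it was higher.

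Krt20 was at 0 counts in 8 WT and 3 Akita libraries, where a count of 0 allows up to 0.141 to 0.396 CPM (3 counts, counting error only). The others held up to 3 counts in WT and up to 17 in Akita mice. The means were 0.0644 ± 0.0699 CPM in WT and 0.180 ± 0.2001 CPM in Akita mice, and 6 of 20 Akita libraries were above the WT range. Without a minimum of counts, the log2 fold change was 1.65 (edgeR adjusted p = 0.0228). It rests on 65 counts in 20 Akita and 19 counts in 20 WT libraries. Of the Akita counts, 17 were in ethanol replicate 4 and 10 in water replicate 4, which held urothelial RNA (19.1 CPM). Krt20 had too few counts to be tested with the 4 urothelial libraries set aside, and their part in its difference was not tested.

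Vcam1 (ENSMUSG00000027962.14, chr3:116109949-116129688, minus strand) is an adhesion molecule that binds integrins of leukocytes, and it was the tested marker with the lowest fold change. Akita mice averaged 7.22 ± 1.40 CPM and WT mice 8.33 ± 1.75 CPM (SD, n = 20), and the Akita mean was below the WT mean in each of the 4 treatments. The log2 fold change of -0.21 (95% confidence interval -0.39 to -0.03, edgeR adjusted p = 0.0823) did not pass the test. It passed when Akita MitoGamide replicate 5 (adjusted p = 0.0477) or Akita water replicate 4 (adjusted p = 0.0306) was left out. An antisense gene, Gm43109, overlaps Vcam1, and the strand setting of the counting is not given in the sources used here, so that their reads may be mixed. A small nuclear RNA gene, Gm23731, likewise overlaps Cd44 on the opposite strand.

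Sox9 (ENSMUSG00000000567.5, chr11:112782224-112787760, plus strand), a transcription factor of repairing tubule cells, averaged 0.811 ± 0.231 CPM in Akita mice, beside 0.810 ± 0.299 CPM in WT mice. Its log2 fold change of 0.05 had a 95% confidence interval of -0.27 to 0.37. Cd44 (ENSMUSG00000005087.17, chr2:102811141-102901665, minus strand), a receptor for hyaluronan, averaged 2.71 ± 0.518 CPM in Akita mice, beside 2.77 ± 0.625 CPM in WT mice, and its interval ran from -0.22 to 0.16 around -0.03. Tnfrsf12a (ENSMUSG00000023905.15, chr17:23675445-23677468, minus strand), the receptor of the cytokine TWEAK, averaged 5.50 ± 1.18 CPM in Akita mice, beside 5.13 ± 1.67 CPM in WT mice, with an interval from -0.14 to 0.34 around 0.10. Changes of the size of Spp1 are outside all 3 intervals, and small changes are within them. Tnfrsf12a moved most with the main axis of the libraries (r = -0.68 within groups over 40 libraries, beside -0.53 for Spp1 and -0.54 for Clu), and the part of the axis in its values was not tested.

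**Figure D3:**
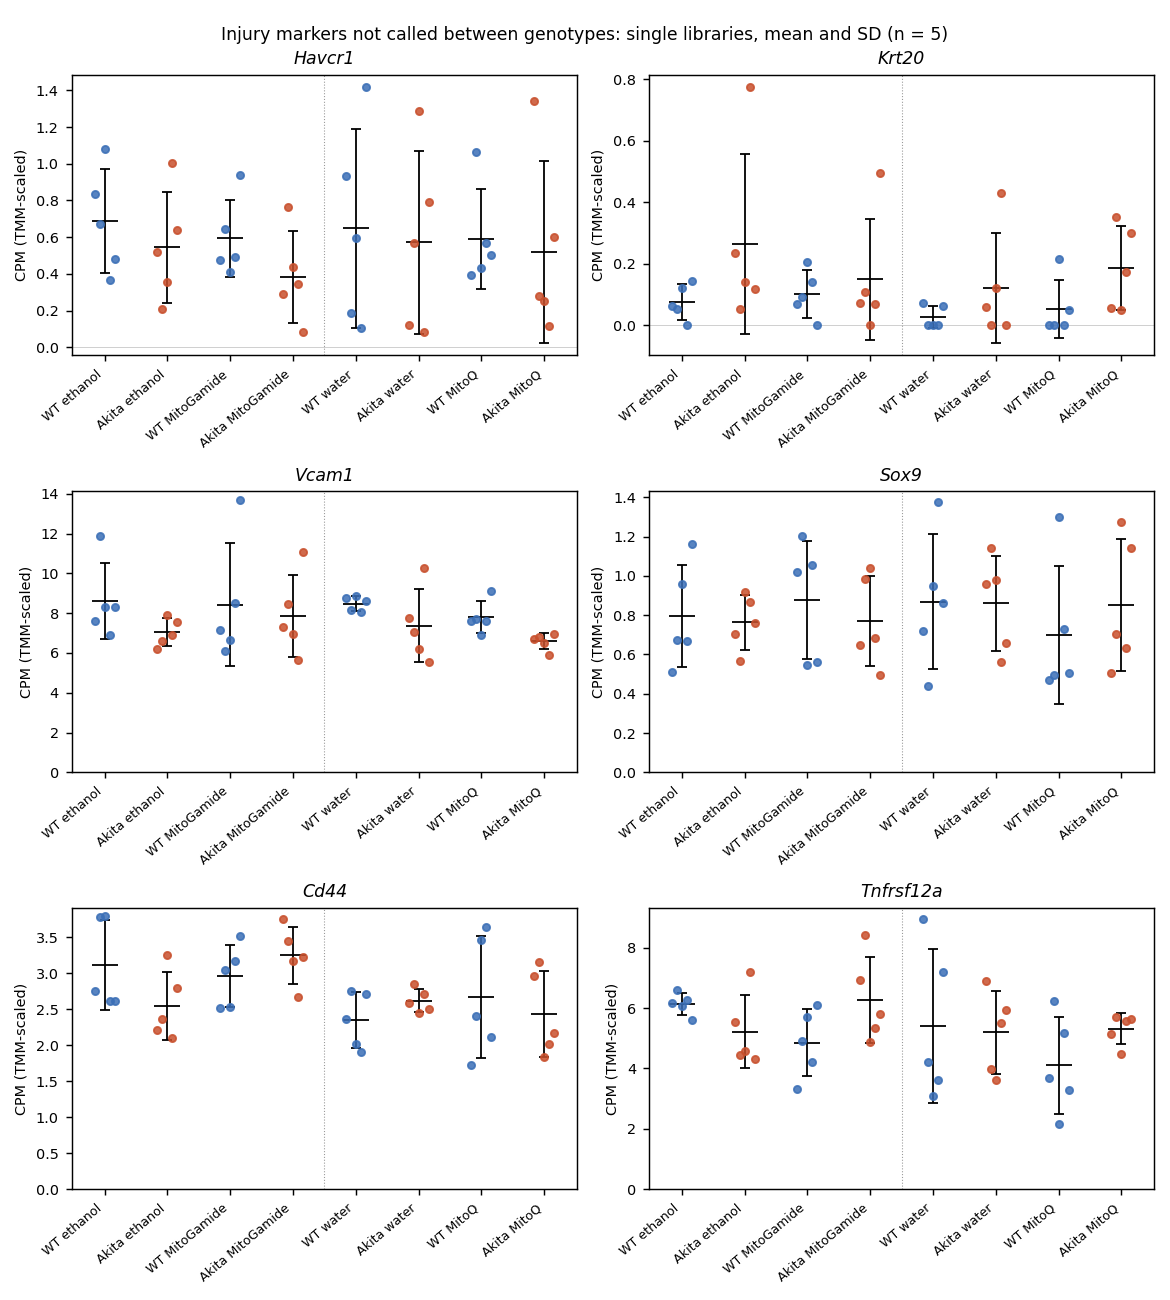
Levels of Havcr1, Krt20, Vcam1, Sox9, Cd44 and Tnfrsf12a in CPM (vertical axes, TMM-scaled) in the 8 groups. Points are single libraries, blue for WT and red for Akita, with the mean and SD of 5. In every panel the Akita and WT libraries overlap within each treatment, and Krt20 has 1 library at 0.775 CPM above the rest.

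Whether the diabetic difference of a marker depended on the treatment was asked in the fit over all 40 libraries. No marker was called, and no gene at all (0%) of 17769 passed the test of a difference among the 4 treatments with edgeR, where 883 had an unadjusted p under 0.05 and DESeq2 called 15. The same held for whether MitoGamide acted differently in Akita and WT mice (0%, 650 genes with an unadjusted p under 0.05 and 0 called by DESeq2) and for the same question with MitoQ (0%, 450 genes and 6 called by DESeq2). Lcn2 had the smallest p of the markers for MitoGamide, with a difference of 1.66 on the log2 scale (95% confidence interval 0.10 to 3.22, unadjusted p = 0.0374, edgeR adjusted p = 1). For Krt19 this difference was 1.89 (-0.09 to 3.88) and for Spp1 0.30 (-0.43 to 1.04). Calls of Lcn2 and Krt19 with MitoGamide and not on the vehicle are therefore not shown to be a difference between these treatments.

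MitoGamide against the ethanol vehicle was then compared within each genotype. In Akita mice, the log2 fold changes of all 8 tested markers were above 0 and none passed the test, where 1.26% of genes did. Among them, Sox9 had 0.06 (95% confidence interval -0.50 to 0.62) and Vcam1 0.16 (-0.18 to 0.50). The share of all genes above 0 was not counted, and their median log2 fold change was -0.002. Fitted without a minimum of counts, the other 2 markers had values below 0 (-0.44 for Havcr1 and -0.99 for Krt20). Lcn2 had a log2 fold change of 1.73 (95% confidence interval 0.49 to 2.96, unadjusted p = 0.01, edgeR adjusted p = 0.122), with 3 of 5 MitoGamide libraries above the vehicle range. DESeq2 called this marker (adjusted p = 0.0355), among 1069 genes that it called in this comparison. Leaving out 1 library gave 1.19 to 1.95 for Lcn2 and 0.70 to 1.32 for Krt19, both lowest without Akita MitoGamide replicate 2. Krt19 had 1.12 (0.32 to 1.92, edgeR adjusted p = 0.122), again with 3 of 5 libraries above the vehicle range, and DESeq2 gave an adjusted p of 0.0543. Genes of endothelium summed to between 669 and 954 CPM with MitoGamide and between 548 and 629 CPM on the vehicle in these Akita mice. Genes of stroma and parietal epithelium summed to between 297 and 398 CPM and between 236 and 294 CPM, so that neither list overlapped between the groups. The lists of injury and repair, mature proximal and distal tubule, leukocytes, urothelium, and collecting duct and medulla did overlap there. For this comparison, the share of all genes without overlap was not counted. The part of endothelium and stroma in the values of the markers was not tested. Cd44 had 0.37 (0.01 to 0.73, edgeR adjusted p = 0.226), Spp1 0.32 (-0.19 to 0.84) and Clu 0.24 (-0.10 to 0.58). In WT mice no marker of 7 tested was called, and no gene (0%, 1841 with an unadjusted p under 0.05, 74 called by DESeq2). Spp1 stood at 329.9 ± 45.3 CPM with MitoGamide and 325 ± 64.1 CPM on the vehicle there, a log2 fold change of 0.02 (-0.26 to 0.30), and Tnfrsf12a at -0.33 (-0.66 to -0.01, edgeR adjusted p = 0.459). The Akita vehicle libraries enter both this comparison and the diabetic one on ethanol.

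MitoQ against water gave no call among 8 tested markers in Akita mice or 5 in WT mice. No gene was called in either genotype (0% each, with 363 genes in Akita and 575 in WT mice at an unadjusted p under 0.05, and 0 and 2 called by DESeq2). In Akita mice, Spp1 had a log2 fold change of -0.31 (95% confidence interval -0.98 to 0.35), Lcn2 of -0.81 (-1.70 to 0.09), Krt19 of -0.48 (-1.93 to 0.98) and Clu of -0.0031 (-0.40 to 0.39). The intervals of Spp1, Lcn2 and Krt19 are wide. The vehicle of MitoQ is not given and the doses of the compounds cannot be matched, so that no direct comparison of MitoGamide and MitoQ was made.

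**Figure D4:**
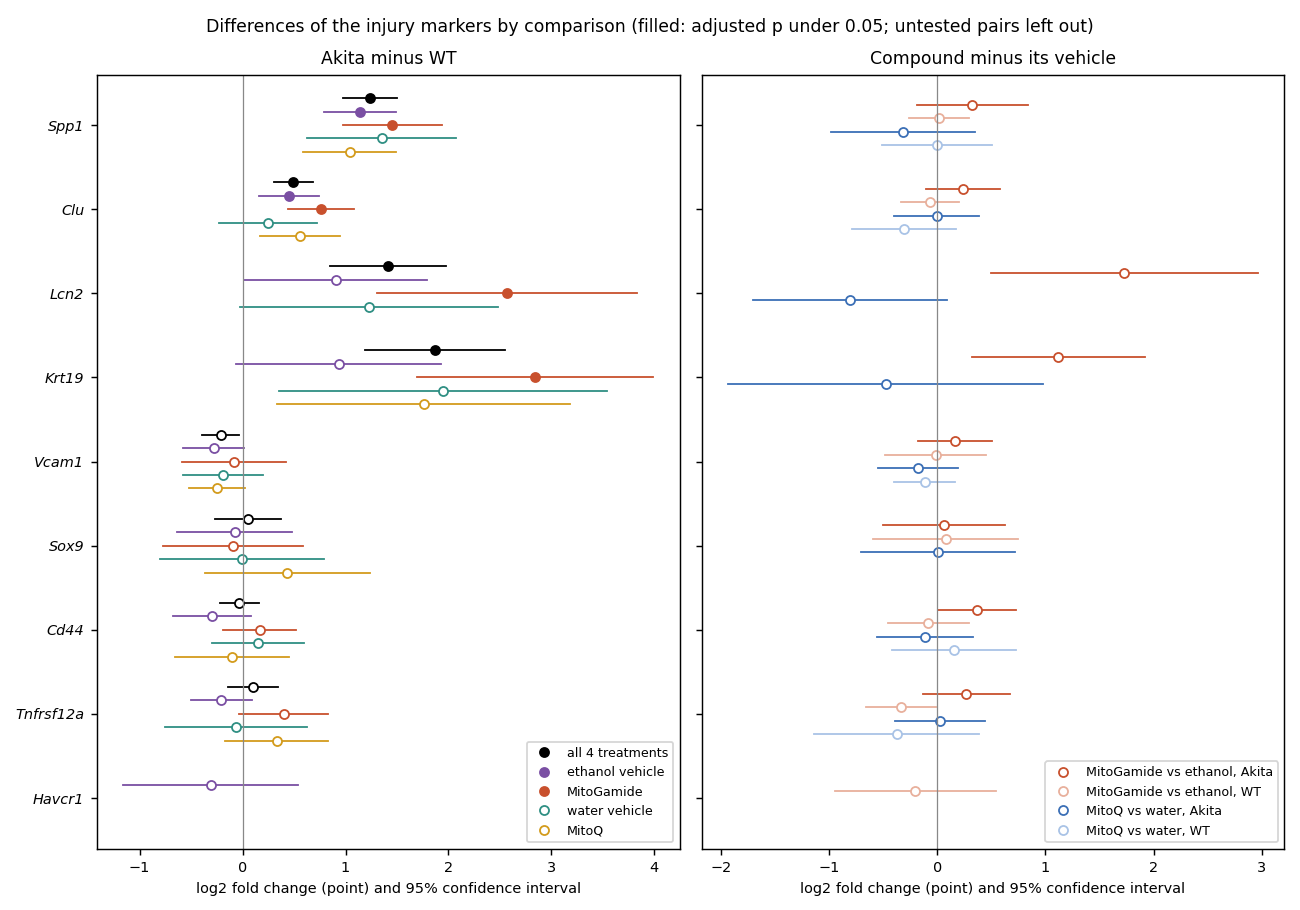
Log2 fold changes of the tested markers (horizontal axes) with 95% confidence intervals. The left panel gives Akita against WT, and the right panel MitoGamide against the ethanol vehicle and MitoQ against water. Filled points have an adjusted p under 0.05; Spp1 lies above 0 in each genotype comparison, and no point is filled in the right panel.

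Other genes of injury and repair were set beside the markers. Of 42 tested genes of a list with 48 in the table, 19 rose in Akita cortex and 0 fell over the 4 treatments, beside 10.9% higher and 11.9% lower among all genes. The rest did not pass the test, and the 42 had a median of 0.26 on the log2 scale. The list was chosen with earlier results of these data known, so that its counts are a description. The list summed to a median of 1570 CPM in Akita and 1387 CPM in WT libraries. Its highest sums were 2816 CPM in Akita MitoGamide replicate 5 and 2171 CPM in Akita water replicate 4. Dcdc2a, named after its values were seen, had -0.26 and was called lower without the 11 libraries that stood apart (-0.36, edgeR adjusted p = 0.0236) and without the 4 with urothelial RNA (-0.35, edgeR adjusted p = 0.00911). Krt18, a keratin of simple epithelia, rose from 6.40 ± 1.23 to 13.1 ± 4.58 CPM (SD, log2 fold change 1.02, SE 0.11, edgeR adjusted p = 4.56e-09). Cdkn1a, the cell cycle inhibitor p21, rose from 4.55 ± 1.58 to 13.7 ± 10.8 CPM (1.55, SE 0.19, edgeR adjusted p = 4.53e-08), with 1 Akita MitoGamide library, replicate 5, at 57.3 CPM. Krt7, another keratin, rose from 37.8 ± 6.92 to 53.6 ± 9.38 CPM (0.51, SE 0.07, edgeR adjusted p = 2.29e-07). The complement gene C3, named after its values were seen, rose by 2.14 on the log2 scale with a spread that exceeded its mean (75.3 ± 113 CPM in Akita mice). Its highest values were 472 CPM in Akita water replicate 4, 246 CPM in Akita MitoGamide replicate 5 and 199 CPM in Akita MitoQ replicate 4.

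Genes of mature tubules and of other cells were counted in the same fit, in which 10.9% of all genes were higher and 11.9% lower. These lists too were chosen with earlier results known, and their counts are a description. Of 26 genes of mature proximal tubule, 11 fell and 3 rose, the latter near the share of all genes. Cyp4b1 (log2 fold change -1.57), the amino acid transporter Slc7a13 (-1.61) and Ggt1 (-0.62), a brush border enzyme, had the smallest p among those that fell. Those that rose were Pck1 (1.15) and Fbp1 (0.32), enzymes of gluconeogenesis, and the amino acid transporter Slc7a7 (0.42). Of 8 genes of distal tubule, 2 rose, among them Calb1 (1.00), and 2 fell, among them Umod (-0.50). Of 9 genes of collecting duct and medulla, 4 rose and 0 fell, led by the water channel Aqp2 (0.98) and the sodium channel subunit Scnn1g (0.53), and the list summed to a median of 297 CPM in Akita and 214 CPM in WT libraries. Krt19 and Krt7 are also expressed in collecting duct, and the part of that segment in their rise was not tested. Of 13 tested leukocyte genes, 5 fell, among them Csf1r (-0.71) and Ptprc (-0.55), and 1 rose, and their list summed to between 66.1 and 123 CPM in Akita and between 99.3 and 184 CPM in WT libraries. Of 10 endothelial genes 4 rose, led by Plvap (0.42) and Eng (0.34), and 1 was called lower. This was Emcn, named after its values were seen (-0.22, edgeR adjusted p = 0.0416). Its call was lost with RLE normalization, without a minimum of counts, without the 11 and without the 4 libraries. Of 10 genes of stroma and parietal epithelium 3 rose, led by Dcn (0.42) and Pdgfra (0.33), and 0 fell. Of the urothelial genes, Upk1a alone had enough counts (10.5 on average), and its log2 fold change was 1.03 (edgeR adjusted p = 0.0171). This is a description, as Upk1a reached the minimum through the Akita libraries (0.878 ± 1.10 CPM, against 0.371 ± 0.217 CPM in WT, SD). Upk1a fell below the minimum of counts once the 4 libraries with urothelial RNA were set aside.

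The genes whose levels most resembled each marker were found by Pearson's r of log2 CPM over the 40 libraries, among 12164 genes that had 50 or more counts on average. As these values include the difference between genotypes, r is a description. Spp1 was most like Gsto1 (r = 0.946), Scg5 (0.946) and Hacl1 (0.944), which had log2 fold changes between genotypes of 0.98, 1.34 and 1.77. Clu was most like Olfm1 (0.863), Ckmt1 (0.860) and Pgm2 (0.860). Lcn2 was most like Spon1 (0.799), Cp (0.789), the gene of ceruloplasmin, and Pappa (0.772), and Krt19 was close to Myof (0.765) and Col12a1 (0.741). Among the markers without a call, Tnfrsf12a was most like Ptges2 (0.786), Cdc34 (0.771) and Hagh (0.752), and Cd44 most like Ifnar2 (0.681), Klhl6 (0.670) and Tpp2 (0.664). Vcam1 was most like Hspb1 (0.668), Mrc1 (0.636) and Ifit1 (0.636), and Sox9 most like Zyx (0.562), Trp53 (0.556) and Smyd5 (0.540).

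Whether the 4 called markers varied together between animals of a group was tested on log2 CPM after the group means were removed, for 6 pairs over 40 libraries. Spp1 and Clu were correlated (r = 0.493, permutation p = 0.00515, adjusted p = 0.0251, rho = 0.489, permutation p = 0.00422, adjusted p = 0.0253). Without the 2 libraries farthest from the median r was 0.410, and it was 0.378 in the ethanol arm and 0.561 in the water arm. It was 0.421 without the 11 libraries that stood apart and 0.531 without the 4 with urothelial RNA. Lcn2 and Krt19 were correlated by r (0.456, permutation p = 0.00838, adjusted p = 0.0251) and not by rho after adjustment (0.354, permutation p = 0.0386, adjusted p = 0.116). For this pair r was 0.380 without the 2 farthest libraries, 0.303 in the ethanol arm and 0.579 in the water arm, and 0.426 without the 11 and 0.304 without the 4 libraries. For the other 4 pairs r ran from -0.04 to 0.26, with adjusted p of 0.386 or more. Spp1 and Clu each moved with the main axis of the libraries, as given above.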

How the data were processed

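Total RNA of renal cortex was depleted of ribosomal RNA, made into directional libraries and sequenced as single reads. After quality trimming (Skewer), the authors pseudoaligned reads to GENCODE mouse transcripts using kallisto 0.46.1 and added the transcripts up to genes in R 4.0.2. The deposited table holds these estimated counts as integers, unfiltered and unscaled, which entered every fit unchanged. Reads shared with a near-identical or overlapping gene may be divided between both. The build on the labels is GRCm38, and positions were taken from GENCODE M21 of that build, which holds 99.5% of the identifiers.

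Counts were analysed in R 4.3.3 with edgeR 4.0.16 (TMM factors, quasi-likelihood F-test, limma 3.58.1) where a gene averaged 10 or more counts. The 40 libraries were fitted as 8 group means for the genotype difference over the 4 treatments and its dependence on treatment, and each pair of groups was fitted on its own 10 libraries. Benjamini-Hochberg adjustment of p ran over all genes tested, and an adjusted p under 0.05 counted as a call. CPM were totals scaled by TMM, log2 values had 0.1 CPM added, and levels between genes were compared per kilobase of exon on unscaled totals. Correlations were tested by permutation. Figures were drawn with matplotlib 3.10.9.

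The markers and gene lists were chosen with earlier results of these data known. Besides all markers, the text names from the list of injury genes and from that of mature proximal tubule up to 3 called genes in each direction with the smallest p, up to 2 called genes of each other list, and the 3 genes most alike each tested marker, of which 1 is not reported here. Dcdc2a, C3 and Emcn were named in addition, after their values were seen. The lists were injury and repair, mature proximal tubule, mature distal tubule, leukocytes, endothelium, urothelium, collecting duct and medulla, and stroma and parietal epithelium.

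Few counts widen the intervals of low markers, and the spread between animals adds to that of all. No 2 libraries of a group agreed within sampling noise. The fits were tested on simulated counts. Alternatives were DESeq2 1.42.0, RLE normalization, no minimum of counts, the replicate number as a block, all 40 libraries in one fit for the pairs, CPM without TMM, and each library left out in turn. Setting aside the 11 libraries on the main axis (score over 30) or the 4 with urothelial RNA was added after seeing the data.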

Additional observations from a re-analysis of the deposited data

Results flagged for a closer look

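Single libraries stood far from the others of their group in 12 of 80 combinations of marker and group, by the gap to the nearest library against the range of the group (Dixon's limit of 0.71 for 5 libraries). Chance gives about 4 for values with a normal spread. The CPM were not logged, some rest on few counts and the combinations share libraries, so that 12 beside 4 is no measure of an excess. Krt20, whose values rest on few counts, and Krt19 had 4 each. Akita ethanol replicate 4 held 0.775 CPM (others 0.0516 to 0.235), Akita MitoGamide replicate 5 held 0.496 CPM (0 to 0.109), Akita water replicate 4 held 0.430 CPM (0 to 0.123), and WT MitoQ replicate 3 held 0.216 CPM, which is 1 count (0 to 0.0504). For Krt19, Akita MitoGamide replicate 2 held 4.26 CPM (1.37 to 2.20), WT water replicate 1 held 2.15 CPM (0.106 to 0.653), WT MitoQ replicate 5 held 0.958 CPM (0.405 to 0.548) and Akita MitoQ replicate 2 held 6.33 CPM (0.690 to 1.29). For Lcn2, WT water replicate 1 held 1.51 CPM (0.106 to 0.431), and Akita MitoQ replicate 1 was low at 0.168 CPM (0.764 to 0.962). Vcam1 was high in WT ethanol replicate 2 at 11.9 CPM (6.89 to 8.32), and Havcr1 in WT MitoQ replicate 2 at 1.06 CPM (0.391 to 0.567).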

How the results depend on the processing

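Over the 4 treatments, Spp1, Clu, Lcn2 and Krt19 were called and higher in Akita mice under every alternative run, and leaving out 1 library in turn gave 4 to 5 calls, the added call being Vcam1. There were 5 calls without a minimum of counts, with Krt20 higher, and 5 without the 11 libraries, where Havcr1 reached the minimum through the WT libraries and was lower. The sign turned for Tnfrsf12a without the 11 libraries on the main axis (-0.011), and for Cd44 in some fits that left out 1 library (-0.063 to 0.023). In CPM without TMM, 2 of 80 group means moved by more than the SD of their group, both of Vcam1. These were 8.87 in place of 8.49 CPM in WT mice on water, and 7.11 in place of 6.59 CPM in Akita mice with MitoQ. The mean of Krt20 in WT mice with MitoQ was 0.0331 in place of 0.0533 CPM, a move within its SD of 0.0937 CPM. Of the injury and repair list, 17 to 22 genes were called higher over the 4 treatments, and 1 lower, Dcdc2a, without the 11 or without the 4 libraries. Of mature proximal tubule, 1 (no minimum of counts) to 5 (without the 11 libraries) were called higher and 10 to 12 lower. Calls by treatment depended more on the setting. The ethanol pair had 1 marker called with all 40 libraries in one fit and 1 to 3 when 1 library was left out, with 3 without WT ethanol replicate 3. The water pair had 1 marker called with DESeq2, with all 40 libraries in one fit and without the 11 libraries, in place of 0. The MitoQ pair had 1 with DESeq2, without a minimum of counts, with all 40 libraries in one fit and without the 11 libraries, and 0 to 1 when 1 library was left out. MitoGamide in Akita mice had 1 with DESeq2. The replicate numbers did not pair the libraries (9 of 40 libraries had their highest mean correlation with their own number, and in each of the 8 comparisons of 2 groups at most 3 of 5 pairs had r over 0.1, with 3 for the water pair and for MitoQ in Akita mice), and with the replicate block 4 markers were called over the 4 treatments, with log2 fold changes of 1.24 for Spp1 and 1.79 for Krt19, and no call of a marker changed. The causes were not tested. Counts of all genes called moved more. The ethanol pair had 2910, and 844 with all 40 libraries in one fit. The MitoGamide pair had 2386, and 1248 to 2822 when 1 library was left out, the lowest without WT MitoGamide replicate 2. The water pair had 101, with 354 by DESeq2, 547 with all 40 libraries in one fit, 313 without the 11 libraries, 32 with the replicate block, 15 without the 4 libraries that carried urothelial RNA, and 32 to 94 when 1 library was left out, the lowest without Akita water replicate 4. The MitoQ pair had 101, with 415 by DESeq2, 308 with all 40 libraries in one fit, 279 without the 11 libraries, 48 with the replicate block and 35 to 270 when 1 library was left out, the lowest without Akita MitoQ replicate 5 and the highest without WT MitoQ replicate 3. MitoGamide in Akita mice had 214, with 1069 by DESeq2, 32 with all 40 libraries in one fit, 0 with the replicate block and 0 to 802 when 1 library was left out, the lowest without Akita ethanol replicate 1 or 2 and the highest without Akita MitoGamide replicate 5.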
